A study of Mus musculus with 6 samples.

Results

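Iron handling was followed through 9 genes of a 55367-symbol expression table: the ferritin subunits Fth1 and Ftl1, the uptake genes Trf, Tfrc and Slc11a2, the export genes Slc40a1 and Cp, and the iron regulatory proteins Ireb2 and Aco1. They were taken by symbol, as genes of iron storage, transport and regulation, and each symbol occurred in the table. The samples were 6 Smart-seq2 libraries (full-length amplification of polyadenylated RNA) of tdTomato+ neurons, isolated by flow cytometry from the dentate gyrus of the hippocampus in TRAP2;Ai9 mice. In these animals a tamoxifen-dependent Cre driven from the Fos gene switches on the red reporter tdTomato for good in cells that were active while the drug was present. All animals had gone through learned helplessness, an inescapable-stress model used in depression research, which set the labelled cells. The NR group (3 libraries, replicates 1 to 3) had no running and the Run group (3 libraries) had voluntary running for 28 days. The labels call the material single cell. Whether a library is 1 cell or a pool, and which animals it came from, is not stated in them. Each p below therefore reflects how much these 6 libraries vary, and part of that variation may be technical.

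Iron inside a cell is held in ferritin, a hollow shell of heavy and light chains. The heavy chain oxidises iron for storage and the light chain helps the iron core to form. Cells take up iron bound to transferrin through the transferrin receptor, move it out of endosomes through the transporter DMT1, and release it through ferroportin with the help of the ferroxidase ceruloplasmin. When iron is scarce, the iron regulatory proteins IRP1 and IRP2 bind short RNA hairpins called iron-responsive elements. Binding at the start of an mRNA blocks its translation, and binding in the tail of the receptor mRNA protects it from decay. In brain, oligodendrocytes are known as the main source of transferrin and as iron-rich cells, and astrocytes as a source of ceruloplasmin.

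The hairpins are shown because they tie the storage, uptake and export genes to the regulators among the 9. The motif searched was a bulged C, 5 stem bases, the loop CAGTGN and 5 stem bases that pair with the first 5 (G-T pairs allowed), on the transcript strand of 1 GENCODE M21 transcript per gene (build GRCm38, the same as mm10). It matched the untranslated regions of 4 of the 9 genes, against 0.559% of 21840 protein-coding genes searched, 0.087% at the 5′ end and 0.472% at the 3′ end. Genes and motif were both taken from known iron regulation, so these shares do not test for enrichment. Capitals mark the bulged C and the 6-base loop in each 29-base window. A match describes these letters and is not evidence of binding in these cells.
Fth1, 5′ UTR, exon 1, chr19:9982732-9982760, plus strand: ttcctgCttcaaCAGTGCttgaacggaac
Ftl1, 5′ UTR, exon 1, chr7:45459779-45459807, minus strand: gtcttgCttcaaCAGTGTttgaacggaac
Slc40a1, 5′ UTR, exon 1, chr1:45925465-45925493, minus strand: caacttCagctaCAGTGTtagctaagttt
Tfrc site 1, 3′ UTR, exon 19, chr16:32631219-32631247, plus strand: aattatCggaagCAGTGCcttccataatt
Tfrc site 2, 3′ UTR, exon 19, chr16:32631598-32631626, plus strand: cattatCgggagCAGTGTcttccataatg
Tfrc site 3, 3′ UTR, exon 19, chr16:32631663-32631691, plus strand: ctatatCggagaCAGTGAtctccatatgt
Tfrc site 4, 3′ UTR, exon 19, chr16:32631710-32631738, plus strand: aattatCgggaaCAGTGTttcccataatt

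Among other genes of iron and heme metabolism listed for comparison, the matches included Alas2, the erythroid form of the first enzyme of heme synthesis. Slc11a2, Trf, Cp, Ireb2 and Aco1 held no match to these letters in the transcript searched. That was the transcript with the longest coding sequence, for Slc11a2 the form of 568 codons. Other transcripts of these genes were not searched, so an element in one of them would be missed.

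The deposited values were FPKM, fragments scaled by transcript length and library size, so levels of different genes can be set side by side. Their sum per library lay between 473786 and 492021, and 5426 to 7355 genes reached FPKM 1. The read depth of the libraries is unknown, and 83.1% of all values were 0. Glial and vascular markers were present beside neuronal ones, so the levels below cannot be assigned to neurons alone. In every library the summed astrocyte markers were above the summed pan-neuronal markers. Summed endothelium markers were above them in all libraries but NR replicate 3 and Run replicate 1. Sums over different marker lists do not give shares of cells. The summed FPKM of 8 astrocyte markers was 2468 to 4647 in NR and 2648 to 5257 in Run, that of 9 pan-neuronal markers 382 to 917 and 581 to 977, and that of 7 granule neuron markers 0.285 to 183 and 39.7 to 279. Of these last markers 0 reached FPKM 1 in all 6 libraries, so granule neurons are thinly marked. Fewer cells of a type and less RNA per cell cannot be told apart in such material.

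Ferritin dominated the iron handling transcripts in every library. Fth1 (ENSMUSG00000024661, chr19:9980598-9985098, plus strand, 4 exons), the ferroxidase subunit, had 4107, 2120 and 2589 FPKM in NR replicates 1, 2 and 3. In Run replicates 1, 2 and 3 it had 3099, 2619 and 3369, and values of other genes are given in the same order. The highest and lowest libraries were both NR, and the Run values lay between them. The mean was 2939 ± 1039 FPKM without running and 3029 ± 379.9 with it (SD, n = 3 per group). Among 21521 nuclear protein-coding genes Fth1 ranked between 2 and 5 in every library.

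Ftl1 (ENSMUSG00000050708, chr7:45457944-45459884, minus strand, 4 exons), the light chain that lacks ferroxidase activity, had 2150, 793 and 1809 FPKM in NR. In Run it had 1751, 1018 and 2821. NR replicate 2 was the lowest and Run replicate 3 the highest, and the groups overlapped between 1018 and 2150 FPKM. The mean was 1584 ± 706 FPKM without running and 1864 ± 907 with it (SD, n = 3 per group), and its rank lay between 7 and 29.

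Fth1 was above Ftl1 in each of the 6 libraries. The ratio of Fth1 to Ftl1 was 1.91, 2.67 and 1.43 without running and 1.77, 2.57 and 1.19 with running. The ranges of the groups overlapped, with the ratio highest in replicate 2 of each group, where Ftl1 was lowest. Both genes together made up 0.609% to 1.28% of the summed FPKM in NR and 0.759% to 1.26% in Run. The other 7 genes summed to 110.03 to 224 FPKM in NR and 32.6 to 374 in Run, so ferritin stood 16.5-fold to 149-fold above them.

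**Figure D1:**
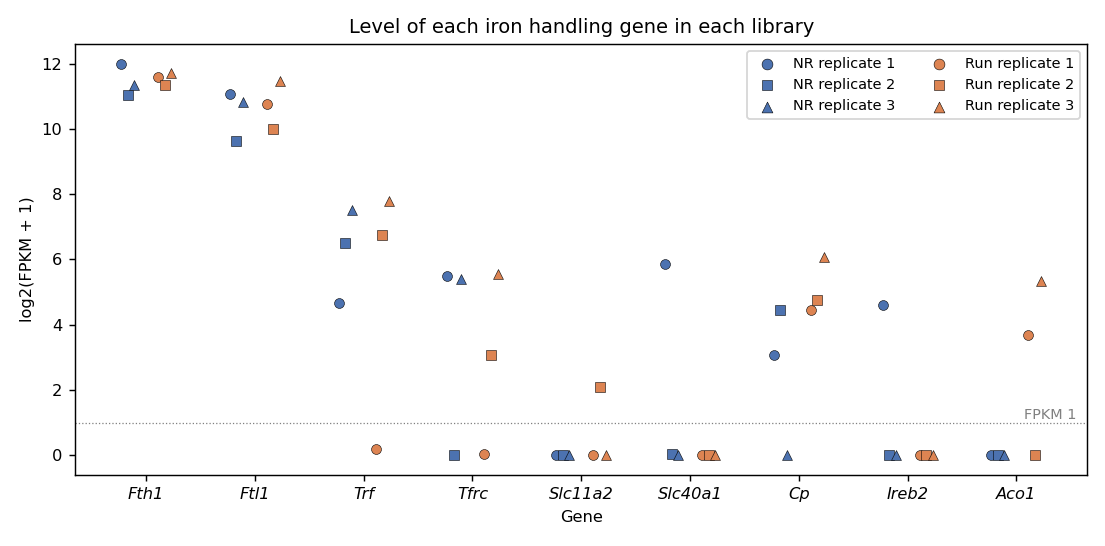
Level of each of the 9 genes on the log2(FPKM + 1) scale (vertical axis) by gene (horizontal axis), with a point per library, blue for NR, orange for Run, and a marker shape per replicate number; the dotted line is FPKM 1. Fth1 and Ftl1 are high in all 6 libraries, while Slc11a2, Slc40a1, Ireb2 and Aco1 are above the line in 1 or 2.

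The ferritin chains differed in their spread between libraries. On the log2 scale Fth1 had a residual SD of 0.37 and Ftl1 of 0.75, against a median of 0.44 over 25 nuclear protein-coding genes with a mean of at least 1000 FPKM. Of those 25 genes 7 had a smaller SD than Fth1 and 21 a smaller SD than Ftl1. From the lowest to the highest library Fth1 spanned 1.94-fold and Ftl1 3.56-fold.

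Ftl1 has near-identical copies in the genome, and reads may have been shared among them by the authors' counting. A blastn search of the Ftl1 transcript against all GENCODE transcripts found 7 other genes with at least 90% identity over at least 200 bases, and 5 of them reached FPKM 1 in each library. Ftl1-ps1, 99.6% identical over 910 bases, had 44.2, 15.7 and 39.5 FPKM without running and 36.01, 20.95 and 58.4 with running. It stood at 1.98% to 2.18% of Ftl1 in every library. The 7 copies together stood at 5.16% to 5.82% of Ftl1. For Fth1 the same search found 1 copy, Gm6977 (90.5% identical), at 0% to 0.302% of Fth1. Below the identity cut-off, Fth-ps3 (87.7% identical over 358 bases) had 1.27 to 2.76 FPKM, at 0.0577% to 0.0879% of Fth1.

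**Figure D2:**
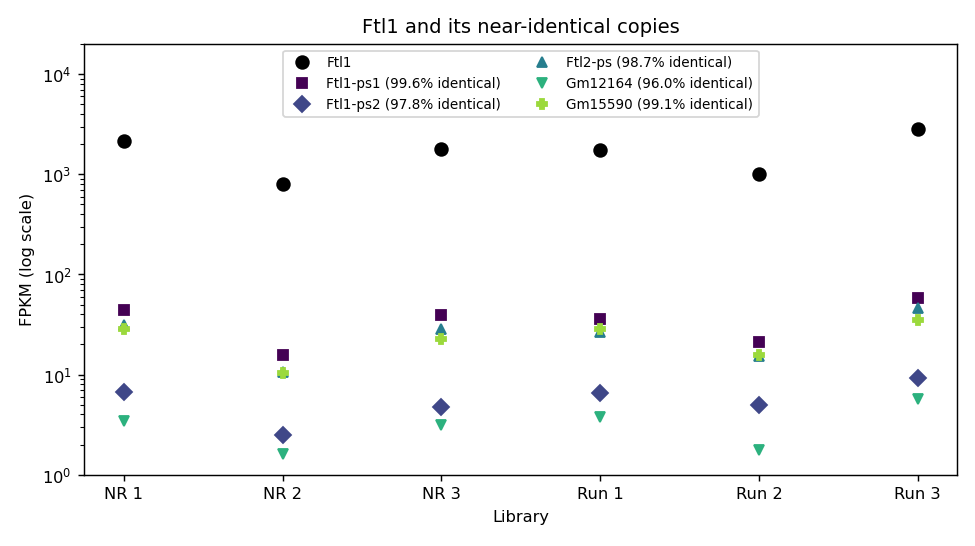
FPKM on a log axis (vertical) of Ftl1 (black circles) and of the 5 copies that reached FPKM 1 in each library, by library (horizontal axis), with the identity to the Ftl1 transcript in the key. The copies lie far below Ftl1, with the most abundant, Ftl1-ps1, at 1.98% to 2.18% of it, and are lowest in NR replicate 2, as Ftl1 is.

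Genes with a pattern over the 6 libraries most like that of each ferritin chain were ranked by the root mean square difference between centred log2 profiles, over 1749 genes that reached FPKM 1 in every library. For Ftl1 they were its copies Ftl1-ps1 (0.033), Ftl2-ps (0.070) and Gm22774 (0.10), an annotated microRNA gene that is 96.3% identical to Ftl1 over 109 bases. The median over all genes compared was 0.83. For Fth1 they were Uqcr10, a subunit of respiratory complex III (0.11), the pseudogene Gm19246 (0.11) and Sdhc, a membrane anchor of complex II (0.12), against a median of 0.68. The difference between the profiles of Fth1 and Ftl1 themselves was 0.42. Genes picked as the nearest lie below the median by construction. The measure also counts the size of the swings between libraries, which were wider for Ftl1 than for Fth1.

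Among the uptake genes, Trf (ENSMUSG00000032554, chr9:103204001-103230444, minus strand, 17 exons), which encodes transferrin, had the highest mean over the 6 libraries, though Tfrc was above it in NR replicate 1. Trf had 24.6, 89.3 and 183 FPKM without running and 0.152, 107 and 223 with running. Run replicate 1 was the only library below FPKM 1, while Run replicate 3 was the highest of all, so the groups overlapped. In the annotation Trf overlaps Gm20425 on the same strand, a symbol that has no row among the deposited values.

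Oligodendrocyte markers varied between the same libraries. Their summed FPKM (9 markers, 3 of them at FPKM 1 or more in each library, 0 of them at 0 throughout) came to 257, 1472 and 1512 for the non-runners and to 183, 583 and 996 for the runners, replicates 1 to 3 in order. NR replicate 1 and Run replicate 1 were the lowest of their groups in both measures. This pattern was not particular to oligodendrocyte markers. Summed markers of microglia were 55.0, 432 and 474 without running and 179, 860 and 322 with running. They too were lowest in replicate 1 of each group. None of the summed astrocyte, endothelium, pan-neuronal and granule neuron markers was lowest in replicate 1 of both groups. Within the oligodendrocyte list Opalin was highest in NR replicate 1, at 48.9 FPKM. Ttr, the choroid plexus marker, had 0, 96.3 and 39.97 FPKM without running and 0.0772, 23.1 and 35.8 with running, while Kl, Folr1, Clic6, Kcnj13 and Otx2 of the same list were listed at 0 in all 6. The part of any of these cell types in the Trf values was not tested.

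**Figure D3:**
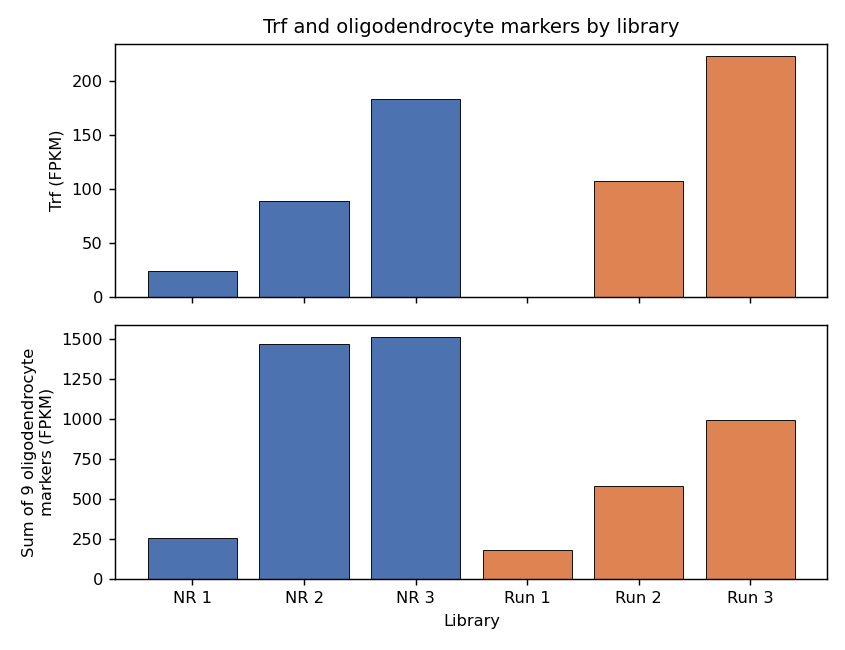
FPKM of Trf (upper bars) and the summed FPKM of 9 oligodendrocyte markers (lower bars) in each library (horizontal axis), blue for NR and orange for Run; bars start at 0 and each is 1 library. In both panels Run replicate 1 is the lowest bar and NR replicate 1 the next. The highest bar differs, Run replicate 3 for Trf and NR replicate 3 for the markers.

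Tfrc (ENSMUSG00000022797, chr16:32608920-32632794, plus strand, 19 exons), the receptor whose tail carries the 4 hairpins above, had 44.1, 0 and 41.3 FPKM without running and 0.0353, 7.35 and 46.3 with running. It was high in 3 libraries, taken from both groups, and at or near 0 in 2. Summed markers of endothelium, a cell type known for the receptor in brain, were 889, 2313 and 846 without running and 848, 1094 and 1674 with running, and their part in these values was not tested. Slc11a2 (ENSMUSG00000023030, chr15:100387898-100425072, minus strand, 17 exons), which encodes the endosomal iron transporter DMT1, was listed at 0 in 5 libraries and had 3.28 in Run replicate 2. A value of 0 can be a failed estimate in such tables.

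On the export side, Cp (ENSMUSG00000003617, chr3:19957054-20009145, plus strand, 20 exons), encoding ceruloplasmin, had 7.49, 20.7 and 0.0101 FPKM in NR. In Run it had 20.6, 26.01 and 65.8. NR replicate 2 lay just above Run replicate 1, and otherwise each Run library was above each NR library, so the groups overlapped at that point alone. The summed astrocyte markers were 4647, 2468 and 3787 without running and 2779, 5257 and 2648 with running, and their part in the Cp values was not tested. Slc40a1 (ENSMUSG00000025993, chr1:45908068-45926523, minus strand, 8 exons), which encodes the iron exporter ferroportin, had 56.7, 0.0306 and 0 in NR and was listed at 0 in all Run libraries. Its signal came from NR replicate 1 alone.

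Both iron regulatory proteins were found in few libraries, and in different ones. Ireb2 (ENSMUSG00000032293, chr9:54863789-54912530, plus strand, 22 exons), encoding IRP2, had 23.1, 0.00342 and 0 FPKM in NR and was listed at 0 in every Run library. Aco1 (ENSMUSG00000028405, chr4:40143081-40198338, plus strand, 21 exons), encoding IRP1, which doubles as the cytosolic aconitase when it holds an iron-sulfur cluster, was listed at 0 in every NR library and had 11.7, 0 and 39.4 in Run. The same pattern, FPKM of at least 1 in 2 Run libraries with 0 in every NR library, occurred in 267 genes of the table, and its mirror image in 263.

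Detection in 1 or 2 libraries was common in this table. Of 10457 nuclear protein-coding genes that reached FPKM 1 anywhere, 29.7% did so in 1 library and 21.9% in 2, and 11.4% in all 6. By that count Slc11a2, Slc40a1 and Ireb2 reached it in 1 library, Aco1 in 2, Tfrc in 4, Trf and Cp in 5, and Fth1 and Ftl1 in 6. NR replicate 1, the source of the Slc40a1 and Ireb2 signal, held 385 protein-coding genes found in no other library, the fewest of the 6 libraries, against 829 in NR replicate 2. Of the 9 genes, those above FPKM 1 numbered 7, 4 and 4 without running and 4, 6 and 6 with running.

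**Figure D4:**
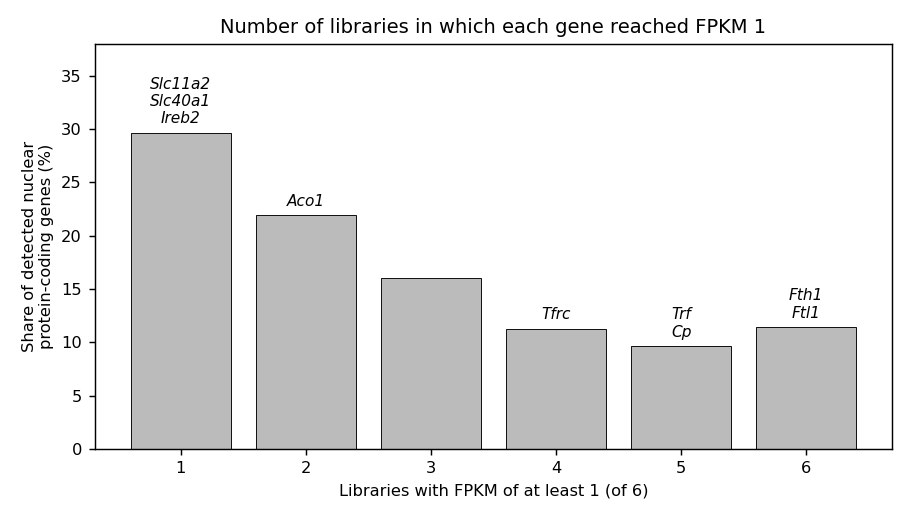
Share of the 10457 detected nuclear protein-coding genes (vertical axis, in percent) by the number of libraries in which they reached FPKM 1 (horizontal axis), with the iron handling genes written above the bar they belong to. The bar for 1 library is the tallest at 29.7%, and 11.4% of genes join Fth1 and Ftl1 at 6.

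Ordered by mean FPKM over the 6 libraries, the genes ran Fth1, Ftl1, Trf, Cp, Tfrc, Slc40a1, Aco1, Ireb2 and Slc11a2. Between Ftl1, never below 793, and Trf, never above 223, the values did not overlap. Every other pair of neighbours in that order overlapped in range, Fth1 and Ftl1 included.

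Whether voluntary running goes with a change in these transcripts was tested between the groups. No iron handling gene passed the test. Of the 9 genes 5 had FPKM of at least 1 in at least 3 libraries and were tested, with limma on log2(FPKM + 1) and Benjamini-Hochberg adjustment over all 6155 such genes. By limma 0 of the 5 reached an adjusted p under 0.05, against 0% of all tested genes. At an unadjusted p under 0.05 there were 0 of 5, against 4.94% of all (304 genes). The groups did not overlap for 0 of 5, against 8.95% of all.

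Fth1 was the most tightly bounded. Its log2 difference, Run minus NR, was 0.09 ± 0.26 (SE), with a 95% interval of -0.53 to 0.71, which is 0.693-fold to 1.64-fold (limma adjusted p = 0.983). Without NR replicate 2 the sign turned, at -0.11. Ftl1 had 0.23 ± 0.49 with an interval of -0.93 to 1.40, or 0.524-fold to 2.64-fold (limma adjusted p = 0.981). Without NR replicate 2 it was -0.20, and without Run replicate 3 it was -0.12. Differences on this scale can understate the change of genes with low FPKM.

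For the transport genes the intervals were too wide to bound a change. Cp had a difference of 2.57 ± 1.46 (SE), with a 95% interval of -0.88 to 6.02 (limma adjusted p = 0.978), and it was positive whichever library was left out, at 1.32 without NR replicate 3 and 3.53 without NR replicate 2. Trf had -1.31 ± 2.02, with an interval of -6.08 to 3.46 (limma adjusted p = 0.978), and 1.05 without Run replicate 1. The mean FPKM of Trf went the other way, at 98.9 in NR and 109.9 in Run. With a pseudocount of 0.1 or 10 in place of 1 the difference was 3.67 or 1.32 for Cp and -2.02 or -0.42 for Trf. Tfrc had -0.74 ± 2.13, with an interval of -5.79 to 4.31 (limma adjusted p = 0.983). Its sign turned without NR replicate 1 (0.19), NR replicate 3 (0.14) or Run replicate 1 (0.68). Slc11a2, Slc40a1, Ireb2 and Aco1 stayed below the filter and were tested only in the alternative without it, where limma called 0 of the 9 genes and the smallest adjusted p among them was 0.712.

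Other genes of iron and heme metabolism, 70 in 8 lists, gave the setting. All 70 were in the table (Skp1 as Skp1a), 8 reached FPKM 1 in all 6 libraries and 21 were listed at 0 in all. Of the 27 tested, 13 had positive and 14 negative differences, with a median of -0.03, as over all tested genes (-0.03). By limma 0 passed in either direction, and 1 had an unadjusted p under 0.05. Named genes are drawn from the up to 3 tested genes of smallest p per list, while Ncoa4, Ftmt, Tfr2, Hamp and Heph were picked after their values were seen. Acsl4 and Alas2 are also named outside that rule, Acsl4 for its role and Alas2 for its motif match.

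Of the other storage and turnover genes 2 of 5 were tested, both with negative differences. Pcbp2, an RNA-binding protein that also acts as an iron chaperone for ferritin, had 118, 90.9 and 218 FPKM without running and 52.3, 107 and 39.7 with running, a log2 difference of -1.12 ± 0.67 (SE). The related chaperone gene Pcbp1 had 0.0130, 47.8 and 17.9 without running and 17.6, 7.74 and 0.0175 with running. Ncoa4, the receptor that delivers ferritin to lysosomes, had 43.6, 4.76 and 0.00432 in the non-runners, with 0.0118 in Run replicate 1 and 0 in the other Run libraries, and stayed below the filter. Ftmt, the mitochondrial ferritin, was listed at 0 in all 6.

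Of the other uptake genes 7 of 12 were listed at 0 in all libraries, among them the second transferrin receptor gene Tfr2, and only Lrp1, a multiligand receptor, was tested. It had 4.03, 2.80 and 0 FPKM without running and 0, 0.293 and 4.72 with running. Of the other export and hepcidin axis genes 6 of 9 were listed at 0 in all libraries, Hamp, the hepcidin gene, and the ferroxidase gene Heph among them. App, whose product has been linked to ferroportin at the cell surface, had 73.6, 104 and 43.1 without running and 35.9, 26.3 and 87.7 with running (log2 difference -0.65 ± 0.78 SE).

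All 6 other iron sensing genes were tested, 5 with positive differences and a median of 0.85. Fbxl5, the iron-binding ubiquitin ligase subunit that targets IRP2 for breakdown, had 0, 18.9 and 0.0946 FPKM without running and 0.0314, 39.6 and 7.87 with running. Cul1, a scaffold of that ligase, had 0, 9.82 and 0 without running and 65.7, 9.80 and 31.2 with running. Its log2 difference of 3.69 ± 1.52 (SE) had the smallest p of the 27 tested (limma unadjusted p = 0.0463, adjusted p = 0.978). Hif1a, a hypoxia factor, had 1.01, 20.8 and 0 without running and 28.6, 1.43 and 11.7 with running.

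Of 13 mitochondrial iron and iron-sulfur genes 6 were tested, 3 in each direction, with a median of 0.07. Lyrm4, a partner of the sulfur donor enzyme, had 46.7, 43.5 and 39.8 FPKM without running and 80.2, 77.2 and 47.8 with running, each Run library above each NR library (log2 difference 0.61 ± 0.65 SE). Isca1, an assembly protein, had 39.9, 21.03 and 56.5 without running and 108, 53.4 and 0.0100 with running. Its log2 difference was negative (-1.04 ± 1.81 SE), though its mean FPKM was 39.2 in NR and 53.9 in Run.

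Of 9 heme synthesis genes 3 were tested, 1 positive and 2 negative, with a median of -2.11. Alas1, the first enzyme of the pathway outside red cells, had 30.01, 100.4 and 26.8 FPKM without running and 50.3, 0 and 0 with running (log2 difference -3.58 ± 1.82 SE). Urod, which encodes a later enzyme of the pathway, had 45.9, 28.7 and 0 without running and 92.2, 34.6 and 0 with running.

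Of 10 genes of heme breakdown and transport 5 were tested, 4 with positive differences and a median of 2.696. Slc48a1, a heme transporter of endosomes and lysosomes, had 43.2, 22.3 and 0 FPKM without running and 109.9, 93.8 and 73.5 with running, with no overlap (log2 difference 3.19 ± 1.496 SE, limma adjusted p = 0.978). The biliverdin reductase genes, which act after heme oxygenase, were Blvra (22.4, 0.0446 and 0 in NR, 0, 43.2 and 149 in Run) and Blvrb (39.5, 5.09 and 0 in NR, 44.4, 18.3 and 119 in Run). Slc48a1 and Lyrm4 were the only 2 of the 27 tested pathway genes whose groups did not overlap (7.41%, against 8.95% of all tested genes).

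Of 6 ferroptosis genes, all of defence except Acsl4, which is known to promote ferroptosis and was not tested, 3 were tested. Their differences were negative, with a median of -0.76. Gpx4, the selenoenzyme that removes lipid peroxides, was the most abundant, with 708, 386 and 312 FPKM without running and 475.5, 257 and 511 with running (log2 difference -0.15 ± 0.46 SE). Slc7a11, the cystine importer, had 18.03, 0.0638 and 4.48 without running and 0.126, 16.7 and 0.136 with running. Gclm, of glutathione synthesis, had 45.4, 14.3 and 20.6 without running and 9.82, 0 and 25.4 with running.

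**Figure D5:**
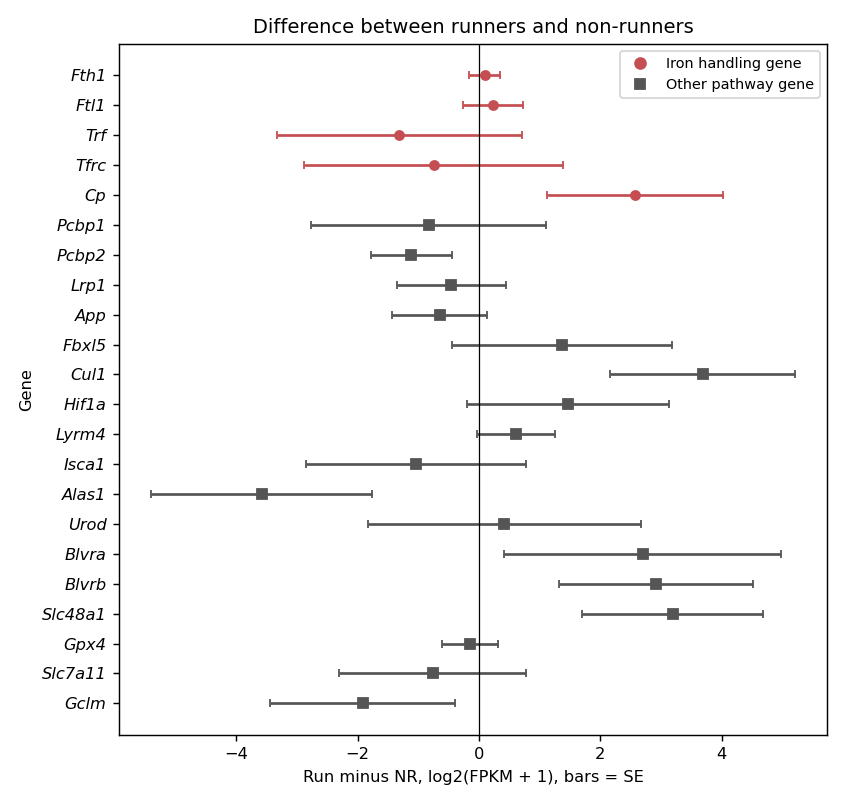
Difference between Run and NR on the log2(FPKM + 1) scale (horizontal axis, points with SE bars, 3 libraries a group) for the 5 tested iron handling genes (red circles) and 17 named genes of the wider pathway (grey squares), by gene (vertical axis). Fth1 and Ftl1 lie near 0 with short bars, and no gene of the plot passed the adjusted test.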

How the data were processed

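The authors deposited 1 table of FPKM values, with a column for each of the 6 libraries and 1 row per symbol. Per the submitters' processing notes, the build was mm10 and the tools named were Trimmomatic 0.39, STAR 2.7.5c and StringTie 2.1.7, with DESeq2 and edgeR and no stated roles. Which annotation was used is not given. Columns were matched to libraries by name, and the replicate number was taken from the library name. All libraries carry 1 batch label.

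Values were tested as log2(FPKM + 1) with limma 3.58.1 in R 4.3.3 (mean-variance trend, 2-sided) over all genes that reached FPKM 1 in 3 or more libraries. The fit was also run on simulated, normally distributed values, which lack the many values of 0 in this table. That run therefore does not measure power or error in these data. Member sequences and coordinates came from GENCODE M21, to which 96.2% of symbols matched, and copies were sought with blastn 2.17.0. Tables and plots used Python 3.11.15. All 9 genes were named, with the 3 genes most like each gene detected in all libraries. For each pathway list up to 3 tested genes of smallest p were named, beside the exceptions stated above. Values of 2 pathway genes that this rule names are not reported here, though the list counts include them. Members and lists were chosen with earlier results of these data known. Smart-seq2 without molecular identifiers counts amplified fragments, not molecules. The protocol does not mark strand, so where Cp overlaps its antisense neighbour Hps3, listed at 0 in all libraries, reads of either gene cannot be assigned by strand.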

Additional observations from a re-analysis of the deposited data

How the results depend on the processing

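No gene of the table passed the adjusted threshold in limma under any of the 14 alternatives run: pseudocounts of 0.1 and 10, no filter, FPKM of at least 1 in all 6 libraries, quantile normalization, scaling without mitochondrial and ribosomal RNA genes, no trend, each library left out in turn, and the replicate block. Genes at an unadjusted p under 0.05 numbered 304 of 6155 tested in the main analysis and 404 of 17361 with no filter, where all 9 iron handling genes were tested and the lowest adjusted p among them was 0.712. Same-numbered libraries correlated weakly in their deviations from the group means (0.021, 0.0042 and 0.018), each best with its own number, and the labels give the numbers no shared source. With the replicate block 0 genes passed and 251 had an unadjusted p under 0.05. Leaving out single libraries moved the log2 difference of Fth1 between -0.11 and 0.36, of Ftl1 between -0.20 and 0.61, of Trf between -2.75 and 1.05, of Tfrc between -2.56 and 0.68, and of Cp between 1.32 and 3.53, and no other alternative turned a sign. Read depth is not known from FPKM, and 3 libraries a group limit the precision.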
